A study of Mus musculus with 12 samples.

Results

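The 10 genes described here run the G1 phase of the cell cycle and its exit into S phase. They were the D-type cyclin genes Ccnd1, Ccnd2 and Ccnd3, the cyclin E gene Ccne1, the kinase genes Cdk2 and Cdk6, the inhibitor genes Cdkn1a and Cdkn2a, the retinoblastoma gene Rb1 and the transcription factor gene E2f3. They were taken by name from the deposited count table and make up 10 of its 750 endogenous probes, with 1 probe per gene. RNA was taken from 12 mammary tumours that arose in MMTV-PyMT mice, where the mammary tumour virus promoter drives the polyoma middle T oncogene, and was counted with the nCounter Mouse PanCancer IO360 panel, an assay that counts fluorescent barcodes bound to chosen transcripts. All groups, controls included, had this transgene and received PTX, and no untreated tumour was among them. PTX alone was given in 2 samples, and PLX+PTX in 2. PLX+PTX+aPD-1 was given in 6, of which 3 have the suffix R in their titles and 3 the suffix NR, and each suffix serves here as the group's name. PLX+PTX+aPD-L1 was given in 2, a group called anti-PD-L1 below. The equally weighted mean of the R and NR groups is called the anti-PD-1 mean. The series title names a CSF1R inhibitor and chemotherapy. The antibodies aPD-1 and aPD-L1 are directed against PD-1, a checkpoint receptor found on T cells, and its ligand. The labels do not expand PTX, PLX, R or NR, and give no age, sex or treatment time. Whether replicates are separate mice is not said, so the p-values below cover no more than the spread among these samples, part of which may be technical.

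As background, growth signals raise the D-type cyclins, which bind Cdk4 or Cdk6 and phosphorylate the retinoblastoma protein. Phosphorylation releases E2F transcription factors, which switch on genes for DNA synthesis together with cyclin E, the partner of Cdk2. Cdkn1a encodes p21, a p53 target that inhibits cyclin-Cdk complexes, and Cdkn2a encodes p16Ink4a, an inhibitor of Cdk4 and Cdk6, and p19Arf, which stabilises p53. In mammary epithelium, cyclin D1 is the D-type cyclin best known for its part in gland growth and in mouse mammary tumours.

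The start regions of Cdk2, E2f3 and Cdkn2a are shown because Cdk2 and E2f3 were among the most alike pairs across the tumours and because these were the members whose windows held the letters of an E2F site. Each line is the 250 bases before an annotated start in RefSeq (GRCm38.p6), 5′ to 3′ on the strand of the gene, which was the minus strand for all 3. Capitals mark TTTCCCGC or its reverse complement. The windows are chr4:89294620-89294869 for Cdkn2a, at the upstream one of its 2 listed starts, chr10:128705052-128705301 for Cdk2 and chr13:29986064-29986313 for E2f3.
Cdk2: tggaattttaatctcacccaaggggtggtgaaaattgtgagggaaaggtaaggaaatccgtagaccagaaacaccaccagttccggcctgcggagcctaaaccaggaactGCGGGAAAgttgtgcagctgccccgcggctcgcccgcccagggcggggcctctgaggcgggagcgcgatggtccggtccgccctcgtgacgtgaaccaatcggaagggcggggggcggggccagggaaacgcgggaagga
E2f3: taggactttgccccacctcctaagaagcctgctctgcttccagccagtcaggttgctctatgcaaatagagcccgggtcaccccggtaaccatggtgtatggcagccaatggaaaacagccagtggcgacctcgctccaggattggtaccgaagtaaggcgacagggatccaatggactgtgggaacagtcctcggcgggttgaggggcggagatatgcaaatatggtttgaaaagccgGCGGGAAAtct
Cdkn2a: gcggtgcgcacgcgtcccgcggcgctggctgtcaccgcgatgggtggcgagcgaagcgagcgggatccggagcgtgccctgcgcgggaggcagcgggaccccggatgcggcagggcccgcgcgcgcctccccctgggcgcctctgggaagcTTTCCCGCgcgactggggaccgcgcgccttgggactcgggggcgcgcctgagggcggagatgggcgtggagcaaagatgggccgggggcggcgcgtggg
The search used 4 forms, TTTCCCGC, TTTCGCGC, TTTGCCGC and TTTGGCGC, on both strands, and was chosen after the sequences had been seen. The letters lay 140 to 133 bases before the start of Cdk2 and 11 to 4 bases before that of E2f3, on the opposite strand in both. They lay 99 to 92 bases before the start of Cdkn2a, on its own strand. Of the 10 genes, 7 had a window in the table, 11 windows in all, and 3 of these 11 held one of the forms, 1 in each of 3 genes, while 611 of all 32851 windows did (1.86%). A match of letters describes the sequence and shows no bound factor.

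The libraries differed in signal. Total endogenous counts ran from 298726 to 531086 in 9 libraries and from 98741 to 141021 in R replicate 2 and both anti-PD-L1 libraries. Counts were scaled by the geometric mean of 20 housekeeping probes, and the scaled values are called normalised counts. The detection limit of a library, the mean plus 2 SD of its 8 negative-control probes, came to 13.3 to 34.2 normalised counts in the 9 libraries and 43.1 to 65.5 in the other 3. Because low signal affected both anti-PD-L1 libraries, no comparison with that group can be made without such libraries, and treatment and signal cannot be told apart there. In marker lists for the tissue, the panel held 4 mammary epithelial genes. All were above the limit except in R replicate 2 and R replicate 3, where 3 were. Their summed levels were 5299 to 5487 in anti-PD-L1 and 6115 to 8601 in the other libraries. Of 9 T cell genes, 6 (Cd3d, Cd8a, Cd8b1, Cd2, Cd5 and Cd6) were above the limit in no library.

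Of the members, Ccnd1, Ccnd3, Cdk2, Cdk6, Cdkn1a, Rb1 and E2f3 were above the limit in all 12 libraries. Ccne1 was above it in 11, Ccnd2 in 10 and Cdkn2a in 8. All 10 passed the filter on low counts (at least 20 counts in 2 or more libraries), as did 615 of the 750 endogenous probes. The coefficient of variation over the 12 libraries was 14.6% for Ccnd3, 17.7% for E2f3 and between 20.7% and 30.8% for 6 others, against a median of 31.4% over the tested probes. That median includes probes near background. Over the 329 probes above the limit in all 12 libraries it was 25.6%, and Cdk2 (27.6%) and Ccne1 (30.8%) lay above this. Ccnd2 stood apart at 109%, a variation above that of 97.7% of tested probes, and Cdkn2a, often near the limit, reached 64.5%.

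**Figure D1:**
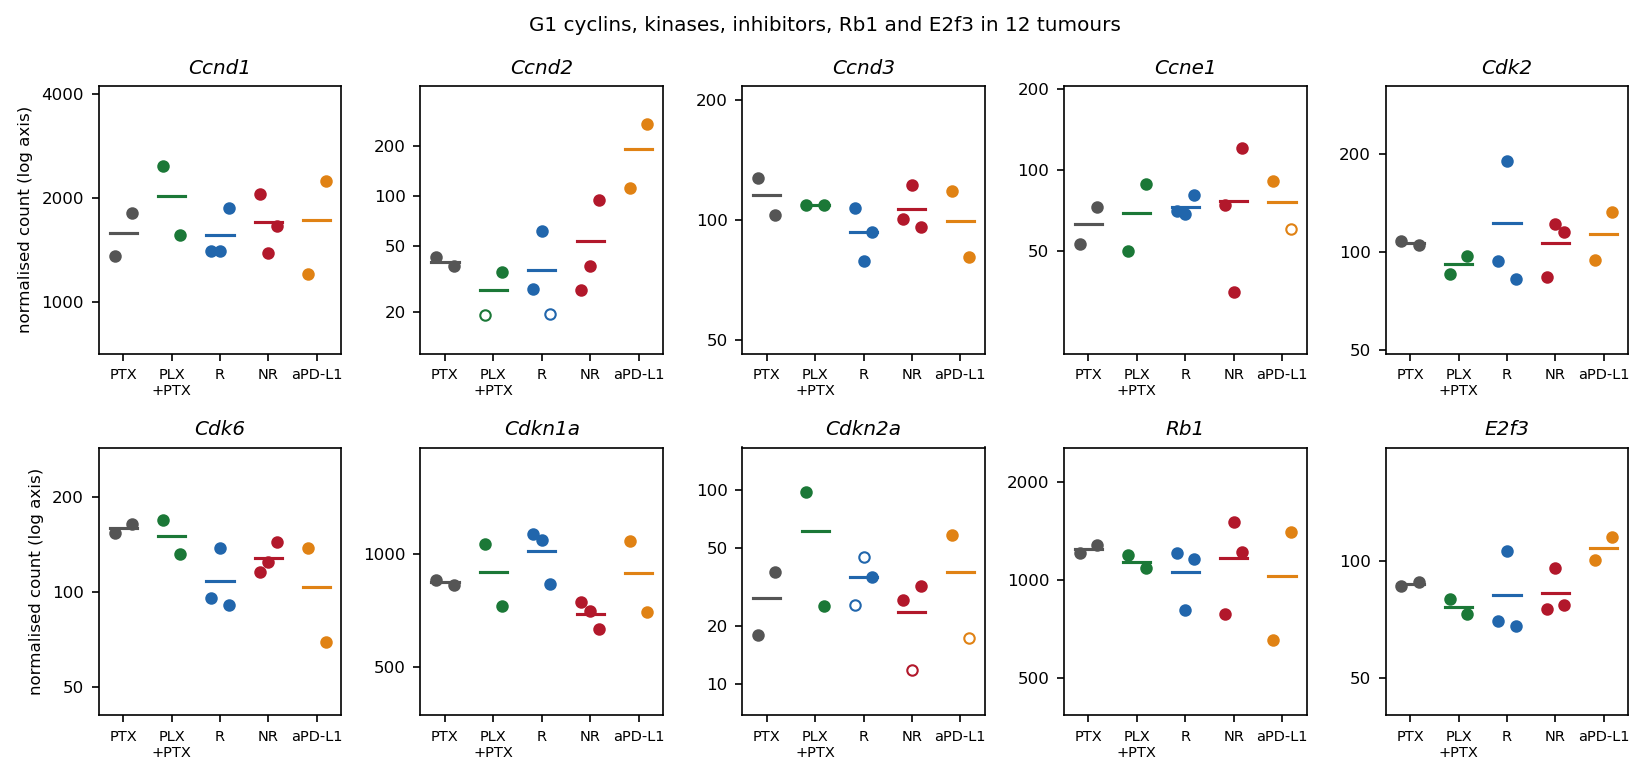
Normalised counts (log axis, its range set for each gene) of the 10 genes in the 12 tumours, by group (aPD-L1 on the axis is the anti-PD-L1 group); filled points lie above the detection limit of their library, open points do not, and bars are group means. The 2 anti-PD-L1 points of Ccnd2, at 111 and 272, lie above all other libraries, while most other genes overlap between groups.

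Groups were compared in one fit of all 12 libraries with edgeR's quasi-likelihood test, with Benjamini-Hochberg adjustment over the 615 tested probes and a threshold of 0.05. Across the 5 groups, 0 of the 10 genes passed, against 2.93% of tested probes (18 of 615). At an unadjusted p under 0.05, 1 member (Ccnd2) and 87 probes stood out, and DESeq2 called 1 member, Ccnd2, and 40 probes. The test across groups gave adjusted p-values between 0.669 and 0.990 for the 9 members other than Ccnd2, whose value was 0.103. In bulk tumour RNA, fewer cells of a type and less RNA per cell cannot be told apart, which holds for each level below.

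Ccnd2, the D-type cyclin that is also expressed in many non-epithelial cells, was the member that differed most between groups. Its normalised counts were 42.8 and 37.5 in the PTX tumours and 19.0 and 34.8 in PLX+PTX. They were 27.2, 61.1 and 19.2 in R and 27.0, 37.8 and 94.7 in NR. In anti-PD-L1 they were 111 and 272. Both anti-PD-L1 libraries were thus above each of the other 10, and NR replicate 3 was the highest of those 10. The anti-PD-L1 values were 2.59 and 4.15 times the detection limits of their libraries. Before scaling, the counts of 84 and 94 lay inside the range of 20 to 136 counts of the other libraries.

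Against the anti-PD-1 mean, Ccnd2 was higher in anti-PD-L1. The means were 192 ± 113 (SD, n = 2) and 44.5 ± 28.6 (SD, n = 6), and the log2 fold change was 2.14 with a standard error of 0.50 (edgeR's quasi-likelihood test, adjusted p = 0.0243). This is a 4.41-fold difference with a 95% interval of 2.06 to 9.43. Ccnd2 was the 1 member of 10 called in this comparison, in which 5.69% of tested probes (35 of 615) were called, all of them higher in anti-PD-L1. It was also the 1 member whose groups did not overlap, while 11.5% of tested probes were higher without overlap and 4.72% lower. The call was lost without anti-PD-L1 replicate 2, where the log2 fold change was 1.38 (edgeR, adjusted p = 0.305). It was also lost without R replicate 1, R replicate 3 or NR replicate 2, with adjusted p-values of 0.0520, 0.0603 and 0.0561 in the same edgeR test, and held without R replicate 2 at 0.0152.

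The Ccnd2 call depended on how the background and the values were treated. With the negative controls subtracted first, the log2 fold change was 2.77 and the edgeR adjusted p 0.212. With only probes that exceeded the limit in at least 10 libraries the adjusted p was 0.0703, and with only the groups compared 0.0511, both by edgeR at a log2 fold change of 2.14. On the authors' deposited log2 values, limma gave a difference of 1.42 with an adjusted p of 0.111. In those deposited values NR replicate 3, at 7.07, lay above anti-PD-L1 replicate 1, at 6.27, so the groups overlapped. The call held with TMM scaling, limma-voom, DESeq2 and no filter, with adjusted p-values between 0.00504 and 0.0358.

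Against PLX+PTX, where the mean was 26.9 ± 11.2 (SD, n = 2), the anti-PD-L1 level of Ccnd2 was 6.97-fold higher, with a 95% interval of 2.40 to 20.2. The log2 fold change of 2.80 had a standard error of 0.70 and did not pass the threshold (edgeR's quasi-likelihood test, adjusted p = 0.0638). PLX+PTX replicate 1, with 20 counts of Ccnd2, was at 0.664 times its detection limit, so the size of this fold rests in part on a background reading. It was 2.04 on the log2 scale without anti-PD-L1 replicate 2 and at most 3.33 with another library left out. No member was called here, against 2.28% of tested probes (14 of 615). Ccnd2 passed with TMM scaling (adjusted p = 0.0470), DESeq2 (0.00128) or edgeR on the 2 groups alone (0.00539). The edgeR adjusted p was 0.0496 without R replicate 2, 0.0233 without NR replicate 3 and 0.0467 without anti-PD-L1 replicate 1, and ranged up to 0.358 without PLX+PTX replicate 1. Ccnd2 and E2f3 were the 2 members whose groups did not overlap, both higher in anti-PD-L1, as were 23.1% of tested probes, while 21.3% were lower without overlap.

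Between the groups without anti-PD-L1, the log2 fold change of Ccnd2 was -0.64 (standard error 0.56) for R against NR and 0.66 (standard error 0.58) for the anti-PD-1 mean against PLX+PTX. Neither passed, with edgeR adjusted p-values of 0.924 and 0.997, and without NR replicate 3 the values were 0.07 and 0.30.

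A ratio of raw counts within a library needs no housekeeping scaling. Ccnd2 gave 9.22 and 12.1 counts per 100 counts of Ccnd1 in the anti-PD-L1 libraries. In the other 10 libraries the ratio ran from 0.768 in PLX+PTX replicate 1 to 5.70 in NR replicate 3. The group means were 10.7 ± 2.06 (SD, n = 2) in anti-PD-L1 and 2.84 ± 1.84 (SD, n = 6) over R and NR. Relative to Ccnd1, both anti-PD-L1 libraries were thus above each other library also without scaling. Relative to Ccnd3 they were not: Ccnd2 gave 94.4 and 336 counts per 100 counts of Ccnd3 in anti-PD-L1, and the 98.6 of NR replicate 3 lay above the lower of these. The divisor of the 336 was 28 counts of Ccnd3, 1.24 times the detection limit of anti-PD-L1 replicate 2, so its size is uncertain. Background counts were not subtracted from either ratio.

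Of the endothelial markers, Kdr was also at its highest in these 2 libraries. The summed level of the 4 endothelial genes on the panel (Pecam1, Cdh5, Kdr and Tie1) was 317 and 780.2 normalised counts in anti-PD-L1, and 127 to 298 in the other 10 libraries. With the background of the negative controls removed, the sum was 229.6 and 650.1 in anti-PD-L1 and reached 232.1 in PLX+PTX, so that anti-PD-L1 replicate 1 no longer stood above the others. In that library Pecam1 (78.3), Cdh5 (46.5) and Tie1 (25.2) lay inside the range of the other groups, and Kdr alone (167) lay above it. Kdr, a receptor for vascular endothelial growth factor, rose against the anti-PD-1 mean by 2.45 on the log2 scale with a standard error of 0.39 (edgeR's quasi-likelihood test, adjusted p = 0.00186). Without anti-PD-L1 replicate 2 its log2 fold change was 1.80 and the edgeR adjusted p 0.0719. Pecam1 (1.06), Cdh5 (0.71) and Tie1 (1.02) gave log2 fold changes that did not pass, with edgeR adjusted p-values of 0.188, 0.313 and 0.0992, and neither anti-PD-L1 library had Tie1 above the limit. In NR replicate 3, which had the highest Ccnd2 of the other libraries, the endothelial sum was 199. The summed level of 11 macrophage and monocyte genes was lowest in anti-PD-L1, at 1502.5 and 1777 normalised counts against 1785 to 4939 in the other libraries, of which the lowest was R replicate 2. The part of these markers in the Ccnd2 difference was not tested.

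**Figure D2:**
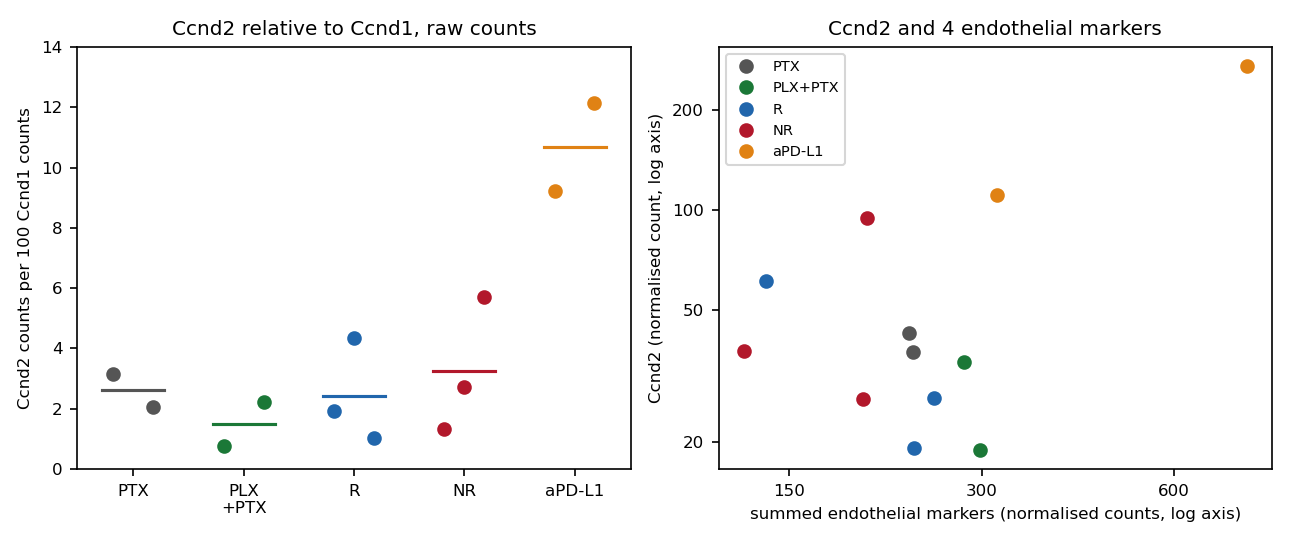
Left, raw Ccnd2 counts per 100 Ccnd1 counts in each library, with group means as bars (aPD-L1 is the anti-PD-L1 group); right, normalised Ccnd2 counts against the summed normalised counts of 4 endothelial markers with background included (both log axes), 1 point per library. The 2 anti-PD-L1 libraries, with ratios of 9.22 and 12.1, are highest on both plots, and NR replicate 3 has a high Ccnd2 count at an endothelial sum of 199.

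The other D-type cyclins showed no such pattern. Ccnd1 had a lowest, median and highest value of 1209, 1614 and 2473 normalised counts over the 12 libraries. Its group means ran from 1560.3 ± 269 (SD, n = 3) in R to 2019 ± 643 (SD, n = 2) in PLX+PTX, and the 2 anti-PD-L1 libraries were the lowest and the second highest of all 12. The log2 fold change of the anti-PD-1 mean against PLX+PTX was -0.31 with a standard error of 0.29 (edgeR, adjusted p = 0.997), and was 0.06 without PLX+PTX replicate 1. Ccnd3, the D-type cyclin with a large part in lymphocyte growth, ran only from 78.8 to 127. Its group means lay between 93.1 ± 14.2 (SD, n = 3) in R and 115 ± 17.1 (SD, n = 2) in PTX. For anti-PD-L1 against the anti-PD-1 mean, the 95% interval of the log2 fold change was -0.56 to 0.72 for Ccnd1 and -0.55 to 0.58 for Ccnd3.

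Cdk6, the kinase partner of the D-type cyclins on the panel, was highest on average in the groups without an antibody. Its normalised counts were 153 and 165 in PTX and 169 and 132 in PLX+PTX. They were 95.8, 138 and 91.3 in R, 116, 124 and 144 in NR, and 138 and 69.3 in anti-PD-L1. The groups with an antibody thus reached into the range of PLX+PTX. The log2 fold change against PLX+PTX was -0.36 (standard error 0.28) for the anti-PD-1 mean and -0.51 (standard error 0.36) for anti-PD-L1. Neither passed edgeR's quasi-likelihood test, with adjusted p-values of 0.997 and 0.500. For anti-PD-L1 the value was -1.12 without replicate 1 of that group and -0.13 without replicate 2. Cdk6 in anti-PD-L1 replicate 2 was 24 counts, 1.06 times the detection limit. The values of -0.51 and -1.12 thus rest in part on a reading near background.

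Cyclin E and Cdk2 act after the D-type cyclins. Ccne1 ran from 35.4 in NR replicate 2 to 121 in NR replicate 3, so that the NR group held both ends of the range. Its group means lay between 63.1 ± 13.8 (SD, n = 2) in PTX and 77.0 ± 43.0 (SD, n = 3) in NR, with overlap between groups in every comparison. Cdk2 read 108 and 105 in PTX, 85.5 and 97.5 in PLX+PTX, and 94.2 and 133 in anti-PD-L1. It read 83.7, 122 and 115 in NR and 94.0, 191 and 82.7 in R. The value of 191 in R replicate 2, a library of low signal, was the highest of the 12, and the 2 other R libraries lay among the lowest 4. Neither gene passed in a comparison, and the 95% interval of the log2 fold change of anti-PD-L1 against the anti-PD-1 mean was -0.76 to 0.73 for Cdk2 and -0.88 to 0.96 for Ccne1.

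Rb1, whose product is the brake that cyclin-Cdk complexes release, ran from 653 to 1502 normalised counts with a median of 1198. Its ends were anti-PD-L1 replicate 1 and NR replicate 2, and the group means lay between 1027 ± 529 (SD, n = 2) and 1245 ± 52.96 (SD, n = 2). E2f3, an activating E2F factor held by the retinoblastoma protein, was 86.2 and 88.3 in PTX, 79.8 and 73.1 in PLX+PTX, and 101 and 116 in anti-PD-L1. It was 70.3, 106 and 68.2 in R and 75.2, 96.0 and 77.3 in NR. The 3 highest E2f3 values were thus those of the 3 libraries of low signal. The log2 fold change of anti-PD-L1 was 0.50 (standard error 0.32) against PLX+PTX and 0.40 (standard error 0.26) against the anti-PD-1 mean, and edgeR gave adjusted p-values of 0.475 and 0.438. With other processing these fold changes fell as low as 0.11 and 0.01. In the authors' deposited log2 values E2f3 read 6.48 and 6.54 in anti-PD-L1, and 6.61 in NR replicate 3.

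Among the inhibitors, Cdkn1a was higher in each R tumour than in each NR tumour. Its normalised counts were 1131, 1087 and 832 in R and 745, 702 and 632 in NR. The means were 1017 ± 161 and 693 ± 56.7 (SD, n = 3 each). The log2 fold change was 0.55 with a standard error of 0.24, a 1.47-fold difference with a 95% interval of 1.01 to 2.12. The edgeR quasi-likelihood p was 0.0432 before adjustment and 0.644 after it, so the difference did not pass. In this comparison 0 members and 0% of tested probes were called, 42 probes had an unadjusted p under 0.05, DESeq2 called 0 and limma on the deposited log2 values called 3 probes, none of them members. Groups did not overlap for 11.5% of tested probes in the higher direction and 2.11% in the lower, and Cdkn1a was the 1 member among them. Without the 3 libraries of low signal the log2 fold change was 0.50 (edgeR, adjusted p = 0.532).

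In the other groups Cdkn1a overlapped: 854 and 828 in PTX, 1062 and 727 in PLX+PTX, and 1084 and 699 in anti-PD-L1. These span most of the range from 632 to 1131 seen in R and NR. The p53 list, whose transcription factor drives Cdkn1a, had 6 tested genes, of which 3 were higher and 3 lower in R than in NR, with a median log2 fold change of 0.04 against 0.11 over all tested probes, and of -0.10 with TMM scaling. Trp53 was at 556 ± 333 in R against 559 ± 121 in NR, and Mdm2, a p53 target that limits p53, was at 114 ± 20.4 against 106 ± 7.27 (SD, 3 libraries each). Trp53 differed by less than the SD of either group, and Mdm2 by less than the SD of R but not that of NR.

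Cdkn2a was near the limit in many libraries. RefSeq lists 2 transcripts of the gene, which start from different first exons and encode p16Ink4a and p19Arf. The probe is listed under a single one of these transcripts, but its position within them is unknown here, so the products cannot be told apart. The window printed above, at the upstream start, may not be that of the transcript counted. Normalised counts were 17.8 and 37.5 in PTX, 96.8 and 25.2 in PLX+PTX, 25.5, 45.3 and 35.6 in R, 27.0, 11.8 and 32.0 in NR, and 58.4 and 17.3 in anti-PD-L1. PLX+PTX replicate 1, at 3.39 times its limit, stood above all others. The log2 fold change of PLX+PTX against PTX was 1.15 (standard error 0.67) and that of the anti-PD-1 mean against PLX+PTX -1.08 (standard error 0.53), with edgeR adjusted p-values of 0.996 and 0.997. Without PLX+PTX replicate 1 they were -0.12 and 0.18, so both directions rested on that library.

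For PLX+PTX against PTX, 0 members and 0% of tested probes were called by edgeR, with 12 probes at an unadjusted p under 0.05 and 0 calls by DESeq2. Ccnd2, Cdk2, Rb1 and E2f3 were lower in both PLX+PTX libraries than in both PTX libraries, while groups of 2 did not overlap for 16.3% of all tested probes in that direction and 18.9% in the other. Their log2 fold changes lay between -0.57 (Ccnd2) and -0.13 (Rb1), and each 95% interval held 0. The median over the 10 genes was -0.08, against 0.03 over all tested probes. For the anti-PD-1 mean against PLX+PTX, 0 members and 0% of tested probes were called, 13 had an unadjusted p under 0.05 and DESeq2 called 0. No member was without overlap there, against 0.488% of probes higher and 3.41% lower.

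**Figure D3:**
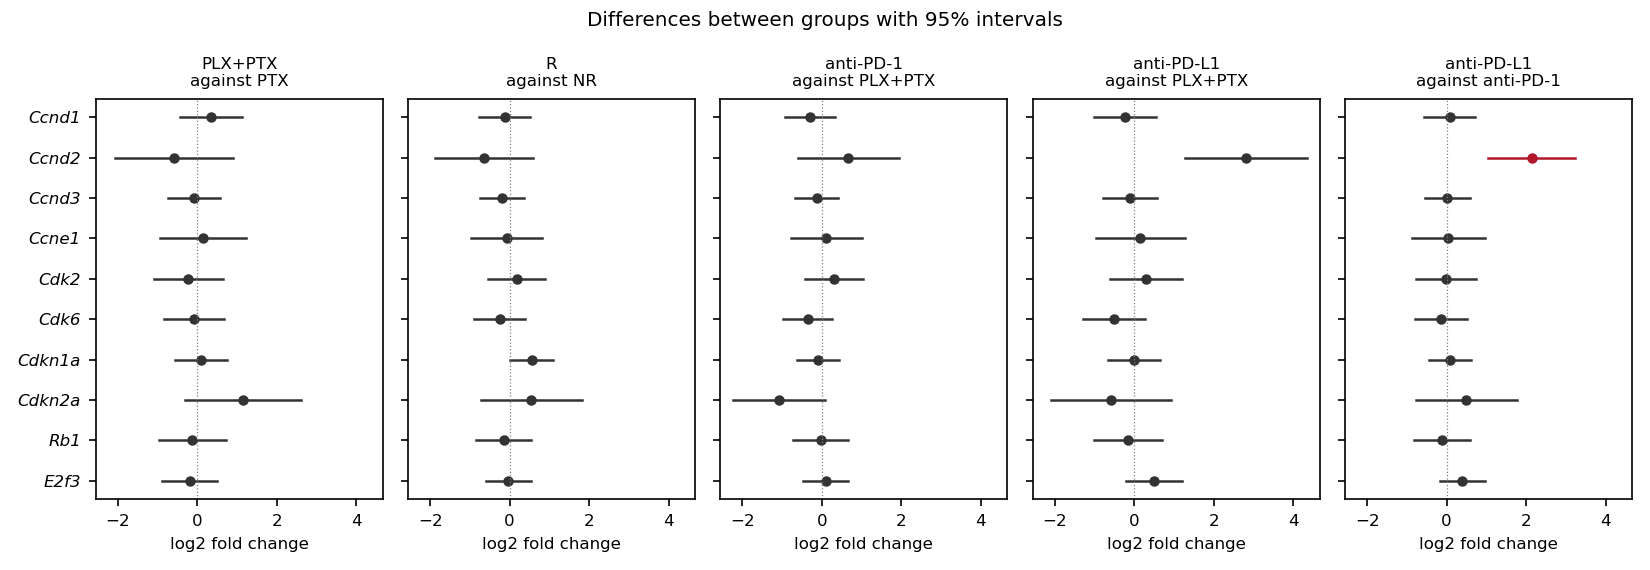
Log2 fold changes of the 10 genes in 5 comparisons, with 95% intervals from the fit of all 12 libraries; anti-PD-1 is the mean of R and NR, and red marks an adjusted p under 0.05. Ccnd2 in anti-PD-L1 against the anti-PD-1 mean, at 2.14, is the 1 difference marked, and most other intervals hold 0.

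Other genes of the G1 pathway were read from lists written out for the panel, and with all 12 libraries none of their genes passed edgeR's quasi-likelihood test in any comparison. Of 12 inputs to the D-type cyclins, 5 were higher and 7 lower in anti-PD-L1 than in the anti-PD-1 mean, with a median log2 fold change of -0.04 against 0.10 over all tested probes. Without anti-PD-L1 replicate 1 the median was 0.18. Among these inputs, Myc, a growth-promoting transcription factor, had group means from 552 ± 180 (SD, n = 2) in anti-PD-L1 to 862 ± 184 (SD, n = 2) in PTX. The 3 other G1 regulators on the panel were the inhibitors Cdkn1c and Cdkn2b and the retinoblastoma relative Rbl2. Cdkn1c, which encodes p57, read 139 ± 31.8 in anti-PD-L1 against 104 ± 36.7 in PLX+PTX (SD, n = 2 each), and 88.0 ± 18.9 (SD, n = 6) over R and NR. Against the anti-PD-1 mean, the log2 fold change of Cdkn1c was 0.65 with a standard error of 0.32 and did not pass (edgeR, adjusted p = 0.317). Cdkn2b, which lies beside Cdkn2a and encodes p15Ink4b, had 37.2 and 109.8 in anti-PD-L1.

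The E2F-linked and the mitotic genes each lay on one side of 0 in some comparisons and on both sides in others, without a call. Of 9 genes linked to E2F and S phase (among them Tyms, Rrm2, Exo1, Ezh2 and Dnmt1), 9 were lower in R than in NR. Their median log2 fold change was -0.34, against 0.11 over all tested probes, and the smallest edgeR adjusted p was 0.840. With TMM scaling the median was -0.47 with 9 of 9 lower, and without NR replicate 3 it was -0.10 with 8 of 9 lower. In anti-PD-L1 these E2F-linked genes were mixed, with 3 higher and 6 lower against PLX+PTX. Against the anti-PD-1 mean 2 were higher and 7 lower. Without anti-PD-L1 replicate 2, 7 were higher and 2 lower in both comparisons. Of 9 tested mitotic genes, 9 were lower in anti-PD-L1 than in PLX+PTX, with a median of -0.49 against -0.02 over all tested probes and a smallest edgeR adjusted p of 0.298. Against the anti-PD-1 mean, 8 of the 9 were lower, with a median of -0.49 against 0.10. Without anti-PD-L1 replicate 2 these medians were -0.30 and -0.23, and without replicate 1 they were -0.80 and -0.83. In R against NR, 3 of the mitotic genes were higher and 6 lower, with a median of -0.19. Mki67, the proliferation marker Ki-67, read 1310.3 ± 366 in anti-PD-L1 against 1966 ± 205 in PLX+PTX (SD, n = 2 each), and 1854 ± 373 (SD, n = 6) over R and NR. Genes of a list share libraries and are not independent replicates.

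Across the 12 libraries the 10 genes did not vary as one block. Over their 45 pairs the median Spearman's rho of the normalised counts was -0.06, with 3 pairs above 0.7 and 1 below -0.5. The 3 pairs joined Ccnd2, Cdk2 and E2f3. Start regions are printed above for Cdk2 and E2f3 but not for Ccnd2. Cdkn2a, whose printed window held the same letters, had rho = -0.35 with Cdk2 and 0 with E2f3. Ccnd2 and Cdk2 had rho = 0.78 and Pearson's r = 0.54 on the log2 scale, with permutation p-values of 0.00442 and 0.0720 (100000 permutations), or 0.119 and 0.732 adjusted over the 45 pairs. Cdk2 and E2f3 had rho = 0.75 and r = 0.72, with permutation p-values of 0.00685 and 0.00605, or 0.119 and 0.136 adjusted. Ccnd2 and E2f3 had rho = 0.74 and r = 0.75, with permutation p-values of 0.00793 and 0.00436, or 0.119 and 0.136 adjusted. None of the 3 passed after adjustment.

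All pairs share the scaling of their library. Without the 3 libraries of low signal, rho was 0.90 for Ccnd2 and Cdk2, 0.72 for Cdk2 and E2f3, and 0.50 for Ccnd2 and E2f3 (n = 9). Without the 2 libraries farthest from the median of the first gene, r was 0.72, 0.52 and 0.48. With each count taken per count of Ccnd1 in the same library, rho was 0.66, 0.85 and 0.73. A divisor shared by both genes can itself raise rho, and that of Ccnd3 and Cdkn1a went from 0.14 to 0.79. These ratios therefore cannot test the 3 pairs. The lowest rho, -0.55, was that of Cdkn2a and Rb1 and fell in size to -0.13 without the 3 libraries. The groups hold 2 or 3 libraries each, too few for a correlation within a group.

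**Figure D4:**
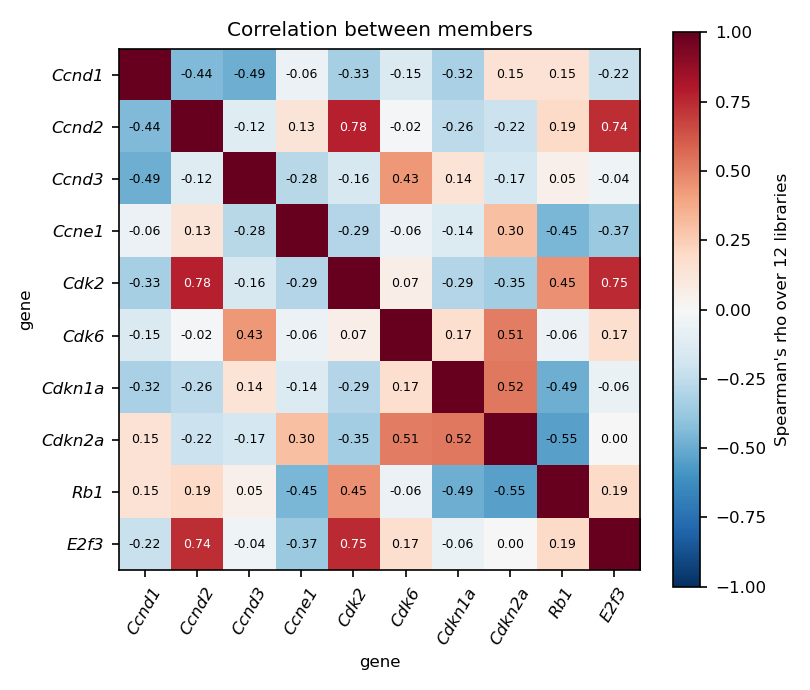
Spearman's rho between the normalised counts of each pair of the 10 genes over 12 libraries (colour from -1 to 1, value in each cell). Ccnd2, Cdk2 and E2f3 form the 3 highest pairs, from 0.74 to 0.78, and Cdkn2a with Rb1 is the lowest at -0.55.

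For each member above the limit in 10 or more libraries, the 2 tested genes outside the set with the highest Spearman's rho over the 12 libraries are given as a description, except for Ccnd3, where 1 is given. Ccnd2 was most like Il6ra (0.94), the interleukin-6 receptor, and S100a9 (0.90), a calcium-binding protein of myeloid cells. E2f3 was most like Ikbkg (0.94) and Rock1 (0.92), and Cdk2 like Zc3h12a (0.87) and Il11ra1 (0.85). Cdk6 was most like Myc (0.88), followed by Col4a5 (0.80). Cdkn1a was most like Gpr160 (0.94) and Ulbp1 (0.79), and Rb1 like Tgfbr2 (0.83) and Hdac5 (0.80). Ccnd1 was most like Adm (0.90) and Palmd (0.80), and Ccne1 like Msh6 (0.87) and Twf1 (0.87). For Ccnd3, Arid1a is given (0.59). Each was chosen as the highest among all tested genes outside the set, so no test is attached to it. Ulbp1, Il11ra1 and S100a9 were above the limit in only 2, 3 and 5 of the 12 libraries, so their ranks rest largely on scaled background readings.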

How the data were processed

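Counts were analysed as deposited: per the file headers, the raw table holds whole-number counts of 784 probes (750 endogenous, 20 housekeeping, 6 positive and 8 negative controls). The authors' deposited log2 values, made by steps not given in the sources used here, served as an alternative. DESeq2 and limma are named, with no role, in the submitters' processing notes. Per the labels' protocols, RNA from small pieces of frozen tumour was copied into cDNA and enriched by multiplex amplification. Normalised counts are counts divided by the library's housekeeping geometric mean over that of all libraries (scale factors 0.346 to 1.80). Depth was 98741 to 531086 endogenous counts. The 9 pairs of libraries within groups each differed by more than sampling noise.

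One model with 5 group means was fitted to the 12 libraries (edgeR 4.0.16 quasi-likelihood, R 4.3.3) with the housekeeping offset, and 6 tests were read from it. Endogenous probes with at least 20 counts in 2 or more libraries were tested (615, with 135 left out). Alternatives used limma 3.58.1, DESeq2 1.42.0, TMM, other filters, background subtraction and left-out libraries. The procedure was tested on simulated data. Of simulated 2-fold changes, 22.2% passed for anti-PD-L1 against PLX+PTX, the lowest share, and 49.6% for R against NR, the highest. A 2-fold difference could thus often fail to pass. The members and lists were chosen with earlier results of these data known. Named genes were the members, Mki67, Myc, Trp53 and Mdm2, called genes of the lists, and the 2 genes most alike each member. Some genes taken by this rule are not reported here. Other genes named, such as the marker genes and Cdkn1c and Cdkn2b, were chosen after their values were seen. Fold changes of members are given with a test where they exceed their standard error. Sequences are from RefSeq.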

Additional observations from a re-analysis of the deposited data

Results flagged for a closer look

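Cdk2 in R replicate 2 read 191 normalised counts, far from the other 5 libraries that received aPD-1, which ran from 82.7 to 122. The gap to the nearest of them, set against the whole range of the 6 libraries, was above the 95% critical value of Dixon's test. Of 10 genes tested at both ends, 1 value was singled out in this way, and chance singles out about 1 in 20 groups. R replicate 2 is a library of low signal, and its part in the value was not tested. In the authors' deposited log2 values Cdk2 read 7.16 in R replicate 2, beside 7.10 in NR replicate 3, and did not stand apart. Groups of 2 and 3 libraries were not tested.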

How the results depend on the processing

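No paired analysis was possible because replicate numbers follow the order of deposition and pair no samples. Members called: across the 5 groups 0, but 1 by DESeq2; anti-PD-L1 against PLX+PTX 0, but 1 with TMM, DESeq2 or only the groups compared; against the anti-PD-1 mean 1, but 0 with the stricter filter, subtracted negative controls, deposited log2 values or only the groups compared. Probes called across groups were 18, but 40 with DESeq2, 0 with the stricter filter and 2 with negative controls subtracted. Against PLX+PTX the 14 probes became 36 with DESeq2, 24 with only the groups compared, and 0 with the stricter filter, subtracted controls or deposited values. Against the anti-PD-1 mean the 35 became 53 with DESeq2, 55 unfiltered, 54 on deposited values, 16 with controls subtracted and 4 with the stricter filter. R against NR gave 3 on deposited values in place of 0. Leaving out 1 library gave 0 to 1 members in each of the first 3 comparisons named here, and 8 to 21 probes across groups, 0 to 18 against PLX+PTX (0 without PLX+PTX replicate 2, 3 without replicate 1) and 16 to 53 against the anti-PD-1 mean (16 and 53 without anti-PD-L1 replicate 2 and 1). Without NR replicate 3, Ccnd2 passed across groups (edgeR, adjusted p = 0.0328).

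Of the 12 fold changes larger than their standard error, 4 of 144 values with 1 library left out changed sign and 0 of 101 others did. Ranges with 1 library left out were -0.12 to 1.82 for Cdkn2a in PLX+PTX against PTX, -1.75 to 0.18 for Cdkn2a and -0.60 to 0.0585 for Ccnd1 in the anti-PD-1 mean against PLX+PTX, and -1.20 to 0.0747 (without NR replicate 3) for Ccnd2 in R against NR. The causes were not tested. TMM scaling moved the median log2 fold change of all tested probes from 0.11 to -0.03 for R against NR, from -0.11 to 0.03 for their mean against PLX+PTX, and from 0.10 to -0.01 for anti-PD-L1 against their mean. Leaving out all 3 libraries of low signal was not run where it removes the anti-PD-L1 group. Low signal limits what can be read of Ccnd2, Ccne1 and Cdkn2a, which lay near the detection limit. In anti-PD-L1 replicate 2 this also holds for Cdk6 and Ccnd3, at 1.06 and 1.24 times the limit.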

Other observations

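Among growth factor receptors on the panel, Egfr read 211 ± 45.1 normalised counts in anti-PD-L1 against 403 ± 176 in PLX+PTX (SD, n = 2 each). This log2 fold change of -0.92 did not pass edgeR's quasi-likelihood test (adjusted p = 0.223). The gene was chosen after its values were seen.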
